A study of Mus musculus with 2 samples.

Results

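The nuclear-encoded oxidative phosphorylation genes code for most of the protein subunits of the machinery by which mitochondria turn fuel into ATP. Members were chosen by symbol alone, as features named Nduf followed by a, b, c, s or v and a number, Sdha to Sdhd, Uqcr, Cox4 to Cox8 or Atp5, leaving out pseudogenes. The rule found 84 members among 28000 features, of which 37 belong by name to complex I, 4 to complex II, 8 to complex III, 18 to complex IV and 17 to complex V. All 84 have a position on GRCm38 in GENCODE mouse release 21, and they lie on 19 chromosomes.

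The levels were measured by single-cell RNA-seq of dissociated mouse prostate tumours, with 1 library per genotype. DoubleTg mice (hHGFtg-hMETtg-PBCre, labelled prostatic adenocarcinoma) carried a human HGF transgene expressed throughout the body and a human MET transgene at the H11 locus, silent until Cre removes a stop cassette. TripleTg mice (hHGFtg-hMETtg-Ctnnb1-PBCre, labelled prostatic carcinoma) carried the same alleles and also a conditional Ctnnb1 allele whose exon 3 the recombinase deletes, which stabilises β-catenin. In both, Cre was driven by a probasin promoter, which is active in prostate epithelium, so stromal, vascular and immune cells are not its target, and the mice were of mixed C57BL/6 and C3H SCID background. Neither the age nor the number of mice behind each library is given in the labels, and genotype, tumour, mouse and library cannot be told apart. Without replicates nothing was tested and no p-value is given, and all intervals are 95% intervals for counting error alone.

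Captured RNA molecules were counted by their unique molecular identifiers (UMIs). Keeping cells with more than 200 and fewer than 7000 genes, and with less than 15% of UMIs from mitochondrial genes, left 10598 of 12072 DoubleTg cells and all 9492 TripleTg cells, with median depths of 16761 and 20097 UMIs. Only 30 cell barcodes were shared by the libraries. Each library was clustered without the members and without mitochondrial genes, so that neither could shape the classes, and clusters were named from marker genes. The luminal-like class held 4999 DoubleTg and 4736 TripleTg cells, the basal-like class 1887 and 1177, the seminal vesicle-like class 127 and 586 and the fibroblast-like class 550 and 635. Smaller classes were smooth muscle-like (67 and 95 cells), endothelial-like (275 and 243), macrophage-like (496 and 434) and dendritic-like (96 and 47), with T/NK-like cells (438) named in DoubleTg alone and neutrophil-like cells (145) in TripleTg alone. The dendritic-like class was not compared between genotypes because 47 cells were too few. Seminal vesicle-like cells are not prostate epithelium, and 1624 DoubleTg and 1369 TripleTg cells stayed unnamed.

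Oxidative phosphorylation runs on 5 protein complexes of the inner mitochondrial membrane. Complex I takes electrons from NADH and complex II from succinate, complex III passes them to cytochrome c, complex IV hands them to oxygen, and complex V, the ATP synthase, uses the proton gradient that complexes I, III and IV build. Complexes I, III, IV and V also hold subunits encoded in mitochondrial DNA, so their assembly needs the output of both genomes. Several subunits of complex IV come as a widespread and a tissue-restricted isoform from separate genes. Normal prostate epithelium is known for secreting citrate, and prostate tumour cells for oxidising more of it.

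The isoform pairs with the sharpest differences between cell classes were Cox4i1 and Cox4i2 (the largest nuclear-encoded subunit of complex IV), Ndufa4 and Ndufa4l2 (a subunit named for complex I and since assigned to complex IV, and its relative induced by hypoxia), and Cox6b1 and Cox6b2 (a subunit facing the intermembrane space, and its isoform known from testis). Their coding sequences are shown because the 3 pairs carry most of what follows. They are read 5′ to 3′ on the coding strand from GENCODE transcripts, whole or the first 300 bases, and capitals mark bases that differ from, or have no partner in, the aligned coding sequence of the other gene. Cox4i1 spans chr8:120668222-120674207 (+) and Cox4i2 chr2:152754173-152765037 (+), and the pair is identical at 339 of 490 aligned bases (69.2%). Ndufa4 spans chr6:11900292-11907497 (-) and Ndufa4l2 chr10:127514967-127517154 (+), with 168 of 245 aligned bases identical (68.6%). Cox6b1 spans chr7:30616861-30626151 (-) and Cox6b2 chr7:4751792-4753094 (-), with 166 of 257 identical (64.6%).
Cox4i1: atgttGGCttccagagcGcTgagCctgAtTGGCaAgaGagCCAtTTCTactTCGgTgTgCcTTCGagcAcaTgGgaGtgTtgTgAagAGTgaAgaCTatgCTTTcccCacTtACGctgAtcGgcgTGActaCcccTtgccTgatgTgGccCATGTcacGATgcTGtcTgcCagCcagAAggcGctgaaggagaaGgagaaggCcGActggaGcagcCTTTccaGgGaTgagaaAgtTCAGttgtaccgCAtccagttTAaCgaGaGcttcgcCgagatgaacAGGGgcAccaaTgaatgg
Cox4i2: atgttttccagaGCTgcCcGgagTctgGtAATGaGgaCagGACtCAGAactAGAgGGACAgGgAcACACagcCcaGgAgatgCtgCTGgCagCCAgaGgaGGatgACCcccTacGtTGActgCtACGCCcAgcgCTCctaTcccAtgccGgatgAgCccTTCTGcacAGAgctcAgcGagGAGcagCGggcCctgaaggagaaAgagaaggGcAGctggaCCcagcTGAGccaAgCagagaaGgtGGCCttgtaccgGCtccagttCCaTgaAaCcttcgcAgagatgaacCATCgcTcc
Ndufa4: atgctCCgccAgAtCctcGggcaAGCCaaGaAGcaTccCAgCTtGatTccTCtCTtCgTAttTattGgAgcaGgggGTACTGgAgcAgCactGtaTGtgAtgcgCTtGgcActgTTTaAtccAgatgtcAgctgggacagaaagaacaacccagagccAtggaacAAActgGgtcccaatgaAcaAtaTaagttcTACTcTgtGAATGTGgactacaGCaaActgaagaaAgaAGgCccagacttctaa
Ndufa4l2: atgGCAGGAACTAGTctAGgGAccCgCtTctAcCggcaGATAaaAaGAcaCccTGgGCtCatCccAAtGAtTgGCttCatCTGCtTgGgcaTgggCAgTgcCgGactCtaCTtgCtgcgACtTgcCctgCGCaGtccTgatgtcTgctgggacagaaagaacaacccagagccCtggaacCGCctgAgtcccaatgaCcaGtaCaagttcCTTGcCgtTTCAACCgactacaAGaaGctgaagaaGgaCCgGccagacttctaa
Cox6b1: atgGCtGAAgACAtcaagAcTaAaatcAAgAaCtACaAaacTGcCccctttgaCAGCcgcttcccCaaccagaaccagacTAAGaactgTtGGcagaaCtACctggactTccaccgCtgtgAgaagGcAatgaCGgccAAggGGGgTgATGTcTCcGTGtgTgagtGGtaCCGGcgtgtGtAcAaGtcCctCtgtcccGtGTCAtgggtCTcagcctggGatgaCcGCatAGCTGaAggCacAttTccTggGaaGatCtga
Cox6b2: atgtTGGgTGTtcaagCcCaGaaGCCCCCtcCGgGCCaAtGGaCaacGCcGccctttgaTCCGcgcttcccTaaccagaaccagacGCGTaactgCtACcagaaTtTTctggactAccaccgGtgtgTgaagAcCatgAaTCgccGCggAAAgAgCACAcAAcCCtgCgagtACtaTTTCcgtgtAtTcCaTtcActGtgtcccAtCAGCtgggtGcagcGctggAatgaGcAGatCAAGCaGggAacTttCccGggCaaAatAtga

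Members made up 2.12% of all UMIs of kept DoubleTg cells and 2.03% of those of TripleTg cells. In luminal-like cells they took 2.27% (interval 2.27 to 2.28) of UMIs in DoubleTg and 2.23% (2.22 to 2.23) in TripleTg, so the libraries were nearly level there. In basal-like cells they took 1.61% (1.61 to 1.62) in DoubleTg and 1.98% (1.97 to 1.98) in TripleTg. Seminal vesicle-like cells went the other way, with 1.57% and 1.21%.

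Outside the epithelium the shares were 1.72% in DoubleTg and 1.75% in TripleTg fibroblast-like cells, 1.88% and 2.29% in smooth muscle-like cells, 1.38% and 1.77% in endothelial-like cells and 1.40% and 1.68% in macrophage-like cells. Dendritic-like cells had 1.40% and 1.77%, DoubleTg T/NK-like cells 1.86% and TripleTg neutrophil-like cells 2.17%. The neutrophil-like class was shallow (median 2820 UMIs) and had Pbsn, a prostate secretory gene, among its leading genes, with epithelial markers at 81.2% of their luminal-like level, and their part in its share was not tested. The order differed between libraries: luminal-like cells were highest in DoubleTg and smooth muscle-like cells, just above them, in TripleTg. With every cell thinned to 5000 UMIs, the median cell held 114 and 108 member UMIs among luminal-like cells, 78 and 97 among basal-like cells and 57 and 80.5 among fibroblast-like cells. Thinning left out 201 DoubleTg and 131 TripleTg luminal-like cells, 146 and 76 basal-like cells and 258 and 279 fibroblast-like cells that were shallower.

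**Figure D1:**
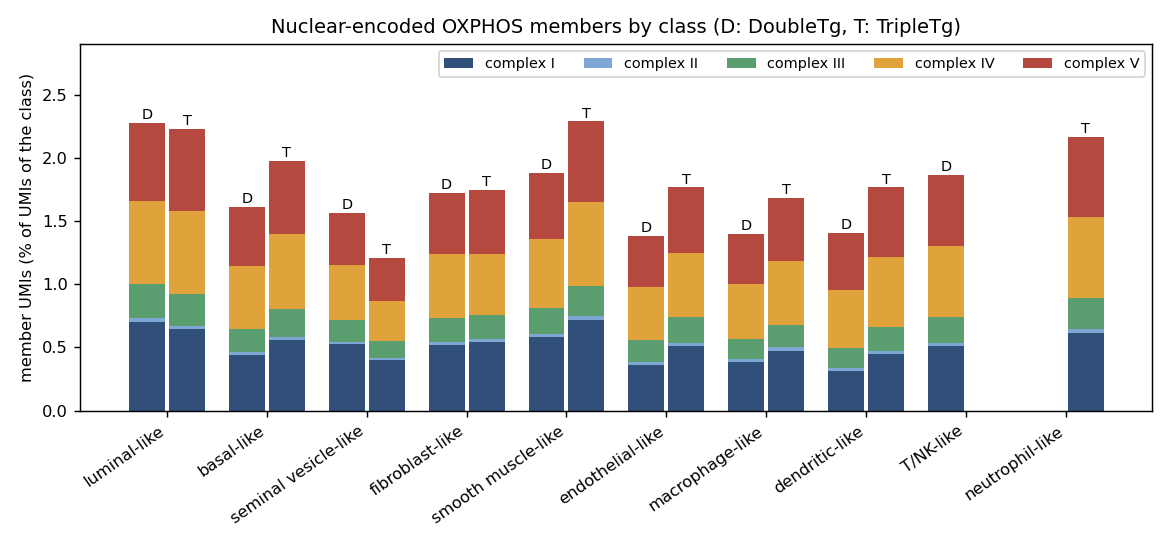
Member UMIs as a percentage of all UMIs of each class (vertical axis, stacked by complex), with 1 bar per library marked D for DoubleTg and T for TripleTg. Luminal-like bars reach 2.27% and 2.23%, basal-like bars 1.61% and 1.98%, and complexes I, IV and V fill most of every bar.

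By complex, the luminal-like UMIs of DoubleTg and TripleTg held 0.704% and 0.646% from complex I, 0.0305% and 0.0273% from complex II, 0.264% and 0.251% from complex III, 0.660% and 0.655% from complex IV, and 0.615% and 0.649% from complex V. Grouped by name, complexes I to IV thus had the lower share in TripleTg and complex V the higher one. Ndufa4, since assigned to complex IV, was counted with complex I, at 580 CPM in DoubleTg and 784 CPM in TripleTg. Its excess in TripleTg is larger than the complex IV difference, so the direction of complex IV holds for the naming rule only. Among basal-like cells every complex but II had the higher share in TripleTg, with 0.442% and 0.561% from complex I, 0.181% and 0.224% from complex III, 0.499% and 0.593% from complex IV and 0.466% and 0.577% from complex V. The 13 protein-coding genes of mitochondrial DNA, which share the same complexes, took 3.35% and 3.69% of luminal-like UMIs and 2.58% and 3.36% of basal-like UMIs.

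The members were then compared gene by gene. For each class and library, summed UMIs were scaled to 1000000 UMIs (CPM), and a difference is the log2 ratio of CPM, TripleTg over DoubleTg. Members with at least 5 CPM in either library entered a comparison, and a member was counted as higher or lower when its ratio reached 1.5-fold. A member below 5 CPM in 1 library passed only through the other, where it was higher, so the filter fixed the sign of its ratio. This held, among others, for Cox4i2 and Atp5s in luminal-like cells and for Cox4i2 and Ndufa4l2 in basal-like cells. It also held for Cox6b2 in macrophage-like and Atp5s in endothelial-like cells. In luminal-like cells 77 of 84 members passed. The other 7 were Ndufa4l2 and the complex IV isoforms Cox6a2, Cox6b2, Cox7a1, Cox7b2, Cox8b and Cox8c, the tissue-restricted partners of widespread subunits.

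In luminal-like cells the members were centred on no difference. Their median log2 ratio was 0.00 (quartiles -0.31 and 0.22), beside -0.01 over the 9050 genes that passed the same filter. Above 0 were 39 members and below it 38, beside 4468 of the 9050 genes above 0. A single member, Cox4i2, was at least 1.5-fold higher in TripleTg, beside 20.3% of all genes, and 7 were at least 1.5-fold lower, beside 22.6% of all genes. Cox4i2 passed the filter through TripleTg alone. The complexes had medians of -0.06 (I), -0.07 (II), -0.20 (III), 0.07 (IV) and 0.14 (V). The members' shares past the fold were thus smaller than those of all genes in both directions. The luminal markers that named the class had 81487 CPM in sum in DoubleTg and 13204 CPM in TripleTg. DoubleTg luminal-like clusters had 11 or 12 of these markers in 50% of cells. TripleTg ones had 5 to 7, where 5 were required. The part of this marker difference in the luminal-like comparison was not tested.

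Ndufa1, a small membrane-arm subunit of complex I encoded on the X chromosome (chrX:37187588-37191163), had 389 CPM in DoubleTg and 154 CPM in TripleTg luminal-like cells, a log2 ratio of -1.34 (-1.36 to -1.32). Ndufv3, an accessory subunit of the NADH-oxidising module (chr17:31520115-31531331), had 215 and 91.9 CPM (-1.22, -1.25 to -1.20). Ndufa3, an accessory subunit of the membrane arm (chr7:3617373-3620327), had 213 and 103 CPM (-1.04, -1.07 to -1.02). Their clusters did not overlap between libraries: Ndufa1 ranged from 238 to 664 CPM over 10 DoubleTg luminal-like clusters and from 126 to 181 CPM over 8 TripleTg ones, Ndufv3 from 119 to 291 against 84.7 to 98.6, and Ndufa3 from 137 to 298 against 87.4 to 125. With Ndufa7, 4 of 77 members had all TripleTg clusters below all DoubleTg ones, beside 6.11% of all genes, and 0 had them all above, beside 6.8%. Clusters share their library, so they are no replicates of the genotype.

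The other members lower by 1.5-fold or more were Atp5s, a coupling factor of ATP synthase with 5.18 and 3.29 CPM (-0.65), Atp5k, the e subunit of its membrane part with 246 and 159 CPM (-0.63), the complex I accessory subunit Ndufa7 with 502 and 330 CPM (-0.60), and Sdhb, the iron-sulphur subunit of succinate dehydrogenase, with 107 and 70.9 CPM (-0.60). All 7 of the lower members were therefore from complexes I, II and V.

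On the higher side, below Cox4i2, stood among others Ndufs1 with 18.6 and 27.4 CPM (0.56), Atp5g3 with 243 and 357 CPM (0.56) and Ndufb9 with 317 and 434 CPM (0.45). Ndufs1 is a core subunit of complex I that carries iron-sulphur clusters, and Atp5g3 codes for the c subunit of the ATP synthase rotor. Their luminal-like clusters overlapped between libraries, from 153 to 362 CPM in DoubleTg against 271 to 466 CPM in TripleTg for Atp5g3 and from 11.7 to 22.8 against 21.6 to 40.2 for Ndufs1.

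**Figure D2:**
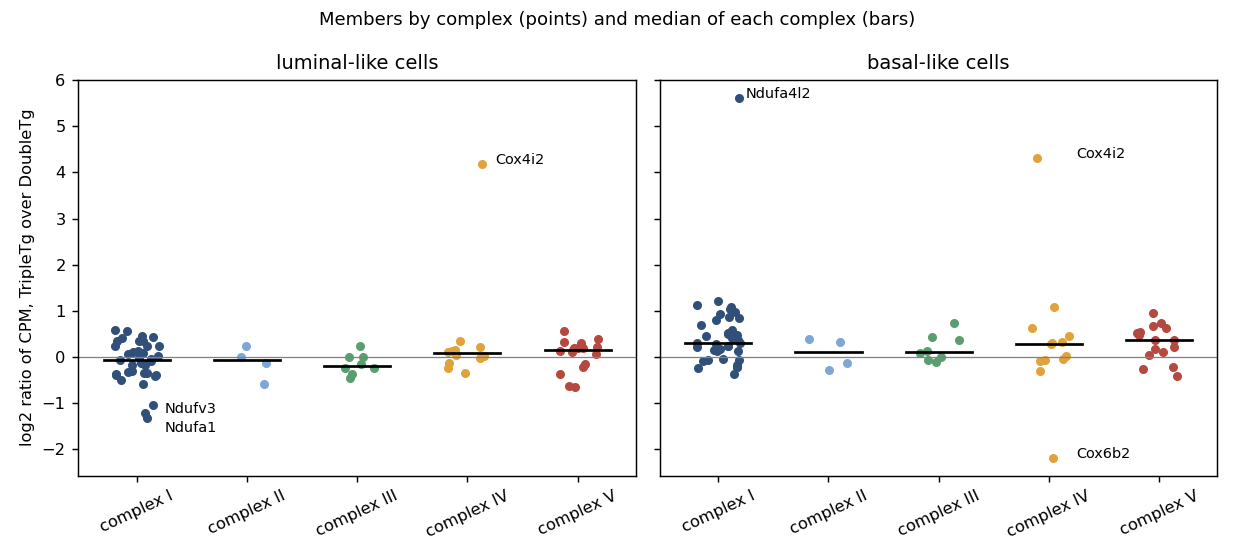
Log2 ratio of CPM, TripleTg over DoubleTg (vertical axis), of each member that passed the 5 CPM filter in luminal-like cells (left) and basal-like cells (right), by complex, with a black line at the median. Luminal-like medians lie between -0.20 and 0.14 and basal-like medians between 0.10 and 0.36, and Cox4i2 stands apart at 4.19 and 4.31, as do Ndufa4l2 at 5.62 and Cox6b2 at -2.19 in basal-like cells.

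The most abundant members of each complex differed by less than 1.5-fold in luminal-like cells, apart from Ndufa7 and Sdhb. Cox4i1 had 1456 and 1236 CPM (-0.24), Cox8a 1034 and 1110 CPM (0.10) and Cox7c 764 and 597 CPM (-0.36), all of complex IV. Atp5e, a small subunit of the ATP synthase stalk, had 721 and 553 CPM (-0.38), Ndufa4 580 and 784 CPM (0.43), and Uqcrq of complex III 391 and 329 CPM (-0.25).

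The core subunits of complexes I and II did not all differ in 1 direction. Of the complex I core in luminal-like cells, Ndufs3 (98.8 and 74.5 CPM, log2 ratio -0.41), Ndufs7 (113 and 89.6 CPM, -0.33) and Ndufv2 (113 and 91.4 CPM, -0.31) were lower in TripleTg, while Ndufs8 (74.8 and 88.4 CPM, 0.24) and the NADH-binding Ndufv1 (84.6 and 91.7 CPM, 0.12) were higher, like Ndufs1. In complex II, Sdha, the flavoprotein that oxidises succinate, was level at 71.2 and 71.1 CPM (0.00, -0.04 to 0.03), while its partner Sdhb was lower and the membrane anchors Sdhc (0.24) and Sdhd (-0.15) differed in sign.

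In complex III the Rieske iron-sulphur protein Uqcrfs1 had 172 and 145 CPM (-0.25), the core protein Uqcrc1 133 and 96.8 CPM (-0.45) and the core protein Uqcrc2 113 CPM in both (0.00). Uqcrh, the hinge protein by which cytochrome c docks, was higher in TripleTg at 745 and 872 CPM (0.23). In complex IV, Cox5a had 364 and 460 CPM (0.34) and Cox5b 348 and 315 CPM (-0.15). In ATP synthase, the large subunits of the catalytic head and the central stalk were slightly higher in TripleTg, with Atp5a1 at 360 and 409 CPM (0.18) and Atp5b at 586 and 630 CPM (0.11) in the head and Atp5c1 at 299 and 329 CPM (0.14) in the stalk.

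The c subunit is encoded by 3 genes whose mature products are the same protein. In 3′ libraries UMIs do not grow with transcript length, but capture and mapping may differ between genes. The shares below are therefore shares of UMIs, not of transcripts. Of the Atp5g1, Atp5g2 and Atp5g3 UMIs of luminal-like cells, Atp5g1 gave 30.04% in DoubleTg and 21.4% in TripleTg, Atp5g2 48.2% and 52.2%, and Atp5g3 21.8% and 26.4%. A lower Atp5g1 share and a higher Atp5g3 share in TripleTg were also found in basal-like cells, with 28.0% and 23.5% for Atp5g1 and 28.5% and 31.3% for Atp5g3, and in seminal vesicle-like cells, with 42.4% and 33.1% for Atp5g1 and 15.9% and 27.2% for Atp5g3. The same held in classes that Cre does not target, such as fibroblast-like cells with 29.5% and 26.2% for Atp5g1 and 22.01% and 27.5% for Atp5g3, and likewise in smooth muscle-like, endothelial-like and macrophage-like cells. In dendritic-like cells, with 47 cells in TripleTg, the Atp5g1 share was 23.9% and 28.2%.

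Basal-like cells differed from luminal-like ones in that the members lay mostly above 0. The median log2 ratio was 0.29 (quartiles -0.06 and 0.57), beside -0.08 over all 9081 genes that passed. Above 0 were 56 of 78 members, beside 4158 of the 9081 genes. At least 1.5-fold higher in TripleTg were 19 members, beside 23.6% of all genes, and 1 was at least 1.5-fold lower, Cox6b2, beside 26.1% of all genes. The complexes had medians of 0.30 (I), 0.10 (II), 0.10 (III), 0.28 (IV) and 0.36 (V). The share higher (19 of 78) was close to that of all genes, while members lower by 1.5-fold or more were nearly absent. Below 0 by any amount were 22 of 78.

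Members with larger basal-like ratios included Ndufa8 with 55.6 and 128 CPM (1.20, 1.11 to 1.29), the core iron-sulphur subunit Ndufs8 with 38.0 and 82.3 CPM (1.12, 1.01 to 1.23), Ndufb11 with 170 and 361 CPM (1.09, 1.04 to 1.14) and Cox7a2l, a protein that joins complexes III and IV into supercomplexes, with 223 and 472 CPM (1.08, 1.04 to 1.13). Among those that followed were Ndufa13 with 153 and 300 CPM (0.97) and the central stalk subunit Atp5c1 with 137 and 264 CPM (0.95). Complex I gave 11 of the 19 higher members, beside 37 of the 78 that passed. Ndufv3 had 38.9 and 67.3 CPM (0.79) and Ndufa1 a log2 ratio of 0.15, so neither was lower in TripleTg basal-like cells as it was in luminal-like cells. Of the members below 0, Ndufa3 had 105 and 80.8 CPM (-0.38), Cox7a2 377 and 304 CPM (-0.31) and Atp5b 638 and 548 CPM (-0.22).

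Both DoubleTg basal-like clusters held 1.61% member UMIs, and the 4 TripleTg basal-like clusters held 1.69% to 2.12%, so the clusters did not overlap. Other measures moved with the genotype in this class. Median depth was 12700 UMIs in DoubleTg and 21423 in TripleTg, and the basal markers themselves had 15004 and 5224 CPM in sum. Genes induced by tissue dissociation had 2630 and 1700 CPM in sum, and the 7 general epithelial markers stood at 52.4% and 42.2% of their luminal-like level. The part of these measures in the basal-like difference was not tested.

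In seminal vesicle-like cells the members' median was -0.39, beside -0.47 over all genes. Atp5g3 alone was at least 1.5-fold higher (0.60), beside 7.26% of all genes, and 17 of 74 were at least 1.5-fold lower, beside 41.3% of all genes. Here the 50 most abundant genes took 54.1% of UMIs in DoubleTg and 60.6% in TripleTg. The DoubleTg cluster and a TripleTg cluster of 143 cells had Svs2, a gene of seminal secretion, among their leading genes. The other TripleTg cluster, of 443 cells, was led by Crisp1 and D730048I06Rik, with Svs4 further down. Its seminal vesicle markers had a mean log2 fold of 1.62, beside 5.86 in the smaller TripleTg cluster and 6.42 in the DoubleTg one. The 2 TripleTg seminal vesicle-like clusters held 1.40% and 0.68% member UMIs, but 3.10% and 3.43% of the UMIs outside their own 50 top genes, beside 3.41% in the DoubleTg cluster.

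Endothelial-like cells had a members' median of 0.37, beside 0.05 over all genes, with 67 of 76 members above the median of all genes. At least 1.5-fold higher were 22 members, beside 24.1% of all genes, and 1 was lower, Atp5s (14 and 9 UMIs), beside 18.1%. Complex I led with a median of 0.53 and 16 of the 22 higher members, among them Ndufb5 (102 and 210 CPM, 1.04), Ndufa8 (93.6 and 189 CPM, 1.01) and Ndufs8 (49.95 and 94.7 CPM, 0.92). The medians of complexes III, IV and V were 0.32, 0.31 and 0.37. In cells with at most 2 of the 7 epithelial markers the members' median was 0.59, beside 0.14 over all genes, with 38 of 75 higher (31.8% of all genes). Dissociation genes had 5325 and 3786 CPM in sum, and their part was not tested.

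Macrophage-like cells had a median of 0.29, beside 0.09 over all genes, with 15 of 76 members higher (19.8% of all genes) and 1 lower, Cox6b2 (16.1% of all genes). Atp5g3 had 145 and 256 CPM (0.82) and Sdhb 83.1 and 135 CPM (0.70). Of the 2 DoubleTg macrophage-like clusters, a shallow one (median depth below the library's median divided by 3) held 1.90% member UMIs and the deeper one 1.11%, beside 1.68% in TripleTg. Without the shallow cluster the members' median was 0.67, beside 0.24 over all genes, and 46 of 75 members were higher (29.4% of all genes). Epithelial markers stood at 24.1% of their luminal-like level in DoubleTg macrophage-like cells and at 11.0% in TripleTg. Keeping only cells with at most 2 of the 7 epithelial markers gave a median of 0.61, beside 0.33 over all genes, with 40 of 76 members higher (39.3% of all genes).

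Fibroblast-like cells had a median of 0.08, beside 0.09 over all genes, with 5 of 78 members higher (23.1% of all genes) and 2 lower (15.2% of all genes). This value rested on a shallow DoubleTg cluster with 2.22% member UMIs, since the other DoubleTg cluster had 1.07% and the 3 TripleTg clusters, the highest of them also shallow, 1.61% to 1.82%. Leaving out the shallow DoubleTg cluster alone raised the median to 0.77, beside 0.17 over all genes, with 55 of 79 members higher (32.4% of all genes). Leaving out the shallow clusters of both libraries gave 0.78, beside 0.23, with 51 of 79 higher (34.8% of all genes). The epithelial markers stood at 40.0% of their luminal-like level in DoubleTg fibroblast-like cells and at 27.5% in TripleTg, and cells with at most 2 of the 7 markers gave a median of 0.48, beside 0.03 over all genes. Ndufa1 (265 and 151 CPM, -0.81) and Ndufa3 (155 and 95.2 CPM, -0.70) were the 2 lower members, and Ndufa1 had a log2 ratio of 0.16 without the shallow DoubleTg cluster and 0.18 without both shallow clusters.

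Smooth muscle-like cells, few in both libraries, had a median of 0.35, beside 0.05 over all genes, with 20 of 79 members higher (28.5% of all genes) and 4 lower (26.9% of all genes). Ndufa10, an accessory subunit of complex I, had 68.3 and 197 CPM (1.53, 1.09 to 1.98) and Ndufa8 70.9 and 168 CPM (1.25, 0.81 to 1.70). The genes induced by dissociation had 7382 CPM in sum in DoubleTg and 3927 CPM in TripleTg smooth muscle-like cells, and epithelial markers stood at 31.6% and 27.2% of their luminal-like level. Their part in the difference was not tested.

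Over the 7 classes compared between genotypes, 74 members passed in all. Atp5g3 (0.42 to 0.90), Cox5a (0.04 to 0.68) and Uqcrh (0.04 to 0.73) had a log2 ratio above 0 in every class, beside 5.96% of the 6866 genes that passed in all classes, and 0 members were below 0 in every class, beside 12% of all genes. In at least 6 of the 7 classes 25 members were above 0 (17.2% of all genes), and 4 were below 0 (25% of all genes), Ndufa1, Ndufa7, Atp5b and Atp5k. The classes share their libraries, so their common direction is no independent repeat.

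Within a library, luminal-like cells were set against the mean of the non-epithelial classes, each class weighted equally. Both means held the fibroblast-like, smooth muscle-like, endothelial-like, macrophage-like and dendritic-like classes, with T/NK-like cells added in DoubleTg and neutrophil-like cells in TripleTg. In DoubleTg the median log2 ratio of members was 0.52, beside -0.17 over all genes, with 33 of 79 members at least 1.5-fold higher in luminal-like cells (22.1% of all genes) and 5 lower (35.6% of all genes). The complexes had medians of 0.64 (I), 0.34 (II), 0.48 (III), 0.33 (IV) and 0.43 (V). The largest luminal excess was that of Uqcr11, a small subunit of complex III (407 and 186 CPM, 1.13), followed by Ndufv3 (215 and 105 CPM, 1.04). In TripleTg the members' median was 0.17, beside -0.17, with 3 of 78 higher (15.1% of all genes) and 3 lower (32.9% of all genes). Without the neutrophil-like class the TripleTg median was 0.19, beside -0.20 over all genes, with 6 higher (17.2% of all genes). The complexes had medians of 0.10, 0.07, 0.26, 0.18 and 0.20 in the same order, so complex I was highest in DoubleTg and not in TripleTg. Ndufa4 was the member with the largest luminal excess there, at 784 and 419 CPM (0.91). Under TMM factors 70 members were higher in DoubleTg (35.5% of all genes) and 29 in TripleTg (28.2% of all genes), with medians of 0.91 and 0.52 beside 0.22 and 0.18 over all genes. Mitochondrially encoded genes had medians of 0.06 and 0.05, and 11 of 13 lay above the median of all genes in each library. Epithelial markers in the non-epithelial classes stood at 8.31% to 40.0% of their luminal-like level in DoubleTg and at 11.0% to 27.5% in TripleTg without the neutrophil-like class, which was at 81.2%, and their part was not tested.

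Between the highest and the lowest class, members had a median fold of 2.09 in DoubleTg, beside 6.26 over all genes with at least 20 CPM in a class, and of 2.05 in TripleTg, beside 4.84. The 4-fold mark was passed by 6 of 78 DoubleTg members (65.1% of all such genes) and 4 of 77 TripleTg members (57.1% of all such genes). Cox4i2, Ndufa4l2 and Cox6b2 passed it in both. Among the others were, in DoubleTg, Ndufv3 (215 CPM in luminal-like and 38.9 CPM in basal-like cells, 5.52-fold) and Atp5sl (24.2 CPM in T/NK-like cells and 1.27 CPM, 1 UMI, in smooth muscle-like cells), whose product resembles a coupling factor and is known for its role in complex I assembly. In TripleTg the other was Ndufa10, with 197 CPM in smooth muscle-like and 46.1 CPM in seminal vesicle-like cells. Of members with at least 20 CPM in a class, smooth muscle-like cells were the highest class for 9 of 78 in DoubleTg, beside 12.2% of all such genes, and for 33 of 77 in TripleTg, beside 14.7%. The libraries differ in their classes, 9 in DoubleTg and 8 in TripleTg, so these counts are not compared between them.

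Cox4i2 and Ndufa4l2 were genes of the smooth muscle-like class, which was led by Rgs5 and Acta2, markers of contractile cells around vessels. Cox4i2 had 251 CPM in DoubleTg and 338 CPM in TripleTg smooth muscle-like cells, with UMIs in 76.1% (64.1 to 85.7) and 74.7% (64.8 to 83.1) of cells. Ndufa4l2 had 444 and 830 CPM, with UMIs in 74.6% (62.5 to 84.5) and 81.1% (71.7 to 88.4) of cells. At 5000 UMIs per cell, 64.6% and 67.7% of cells had Cox4i2 and 77.1% and 87.7% had Ndufa4l2. Endothelial-like cells of like depth (median 6136 UMIs in DoubleTg, beside 8040 in smooth muscle-like cells) had a UMI of Cox4i2 in 0 of 275 cells and of Ndufa4l2 in 0 of 275, which allows a share of cells with a UMI of up to 1.33% for each. At this depth that limits detection, not the share of cells expressing either gene.

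As a share of the isoform pair, Cox4i2 gave 20.1% (17.6 to 22.7) of Cox4i1 and Cox4i2 UMIs in DoubleTg and 22.1% (20.2 to 24.0) in TripleTg smooth muscle-like cells, against 0.0321% and 0.688% in luminal-like cells. Ndufa4l2 gave 59.9% (55.8 to 63.9) and 74.7% (72.3 to 77.0) of its pair in smooth muscle-like cells, against 0.00876% and 0.0175% in luminal-like cells. In that class the relative therefore had more UMIs than Ndufa4 itself. Ndufa4l2 overlaps the gene Shmt2 at its end, so its level is uncertain as far as the counting could not separate the genes.

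Cox6b2 belonged to fibroblast-like cells, with 51.5 CPM in DoubleTg and 72.0 CPM in TripleTg and UMIs in 29.1% (25.3 to 33.1) and 23.3% (20.1 to 26.8) of cells. It gave 11.4% (10.1 to 12.8) and 16.5% (15.01 to 18.1) of Cox6b1 and Cox6b2 UMIs there, against 0.362% and 0.101% in luminal-like cells. The log2 ratio between genotypes, 0.48, turned to -0.59 with means of per-cell CPM, to -0.31 in cells with at most 2 of the 7 epithelial markers and to -0.10 without the shallow DoubleTg cluster. Its level was uneven within the class, at 77.3 and 31.9 CPM in the 2 DoubleTg clusters and at 145, 31.8 and 29.7 CPM in the 3 TripleTg ones. The highest TripleTg cluster was led by Col3a1, Col1a2 and Mfap5, and the highest DoubleTg cluster by Lum, Sult1e1 and Ccl2. Endothelial-like cells had Cox6b2 in 0.727% and 2.06% of cells.

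**Figure D3:**
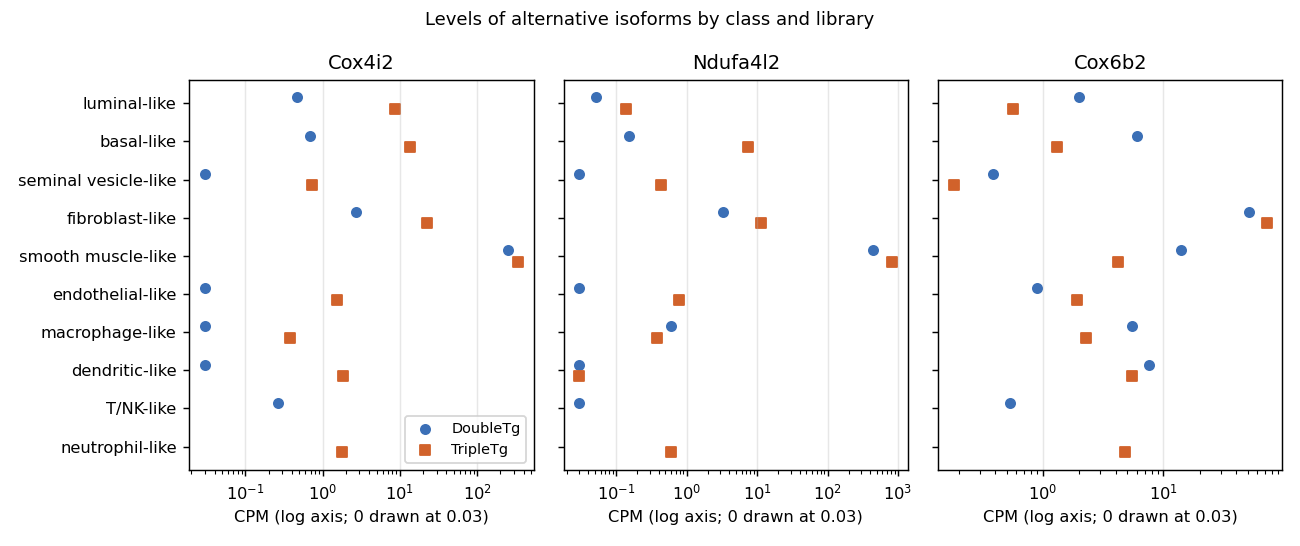
Level in CPM (horizontal log axis, 0 drawn at 0.03) of Cox4i2, Ndufa4l2 and Cox6b2 in each class, with circles for DoubleTg and squares for TripleTg. Cox4i2 and Ndufa4l2 peak in smooth muscle-like cells (251 to 830 CPM) and Cox6b2 in fibroblast-like cells (51.5 and 72.0 CPM).

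The other tissue-restricted isoforms of complex IV were low or not detected. Cox7b2 and Cox8c had 0 UMIs in every non-epithelial class of both libraries, and 3 and 2 UMIs in DoubleTg luminal-like cells. Cox8b had 18 UMIs in DoubleTg fibroblast-like cells and Cox6a2 12 in DoubleTg macrophage-like cells. Cox7a1 gave 1.06% and 0.597% of Cox7a1 and Cox7a2 UMIs in luminal-like cells, with 4.18 and 2.57 CPM, and this muscle isoform was highest in smooth muscle-like cells, with 10.1 and 7.50 CPM. The widespread partners were far more abundant, such as Cox8a with 1034 and 1110 CPM, Cox6a1 with 297 and 307 CPM and Cox7a2 with 392 and 428 CPM in luminal-like cells.

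Cox4i2 was also the member with the largest luminal-like difference between genotypes, with 92 UMIs (0.468 CPM) in DoubleTg and 1248 UMIs (8.56 CPM) in TripleTg, a log2 ratio of 4.19 (3.89 to 4.52). A single TripleTg cluster of 444 cells carried 1004 of the 1248 UMIs (80.4%), with 63.5 CPM and UMIs in 32.9% of its cells. The next cluster had 5.74 CPM and the lowest 0.719 CPM, while DoubleTg clusters reached 1.12 CPM. That TripleTg cluster was led by Tchh, Fabp4, Cnfn, S100a7a, Crym, Rptn and Krt73, several of them genes of cornified epithelium and hair sheath, and passed the luminal markers all the same. Without it the log2 ratio of Cox4i2 was 2.005. At 5000 UMIs, 14.5% of the cluster's cells had a Cox4i2 UMI, and over the class 0.250% did in DoubleTg and 2.13% in TripleTg.

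Basal-like cells showed a like pattern for both isoforms. Cox4i2 had 18 UMIs (0.680 CPM) in DoubleTg and 380 UMIs (13.5 CPM) in TripleTg, a log2 ratio of 4.31 (3.63 to 5.08). Of the 380 UMIs, 353 (92.9%) came from a cluster of 294 cells led by Mt4, Igfbp2, Ptn, Lgals7, Krt42, Asprv1 and Krt5, which had 44.6 CPM and UMIs in 23.5% of cells. Without it the log2 ratio was 0.98. Ndufa4l2 had 4 UMIs (0.151 CPM) in DoubleTg and 209 UMIs (7.44 CPM) in TripleTg basal-like cells, a log2 ratio of 5.62 with a wide counting interval of 4.24 to 7.51. The same Mt4-led cluster gave 170 of the 209 UMIs (81.3%), and without it the ratio was 3.68. In luminal-like cells Ndufa4l2 had 10 and 20 UMIs, so it stayed near 0 in the class where Cox4i2 stood out.

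**Figure D4:**
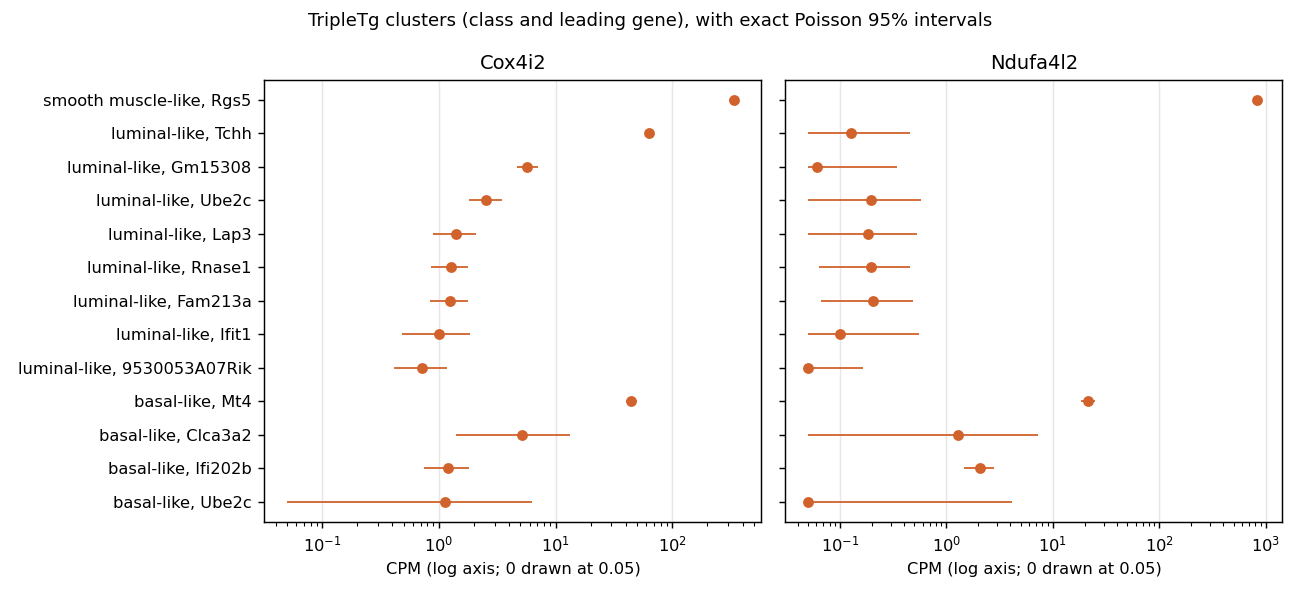
Level in CPM (horizontal log axis, 0 drawn at 0.05) of Cox4i2 and Ndufa4l2 in each TripleTg luminal-like, basal-like and smooth muscle-like cluster, each named by its class and leading gene. Cox4i2 reaches 63.5 CPM in the Tchh-led luminal-like cluster and 44.6 CPM in the Mt4-led basal-like cluster, and Ndufa4l2 21.5 CPM in the latter.

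Fibroblast-like cells had Cox4i2 at 2.68 CPM (13 UMIs) in DoubleTg and 22.7 CPM (121 UMIs) in TripleTg, a log2 ratio of 3.08 (2.26 to 4.03). Ndufa4l2 had 3.29 CPM (16 UMIs) and 11.4 CPM (61 UMIs), a log2 ratio of 1.80 (0.98 to 2.69) that turned to -0.12 with means of per-cell CPM. Of the 121 Cox4i2 UMIs, 90 came from a TripleTg cluster of 178 cells led by Col6a1, Crispld2 and Cxcl14, where the level was 66.5 CPM, and without it the log2 ratio was 1.54. A DoubleTg cluster of 405 cells led by Mgp, Cxcl14 and Wif1 carried fibroblast markers but stayed unnamed and outside the class, and it had Cox4i2 at 16.7 CPM (79 UMIs).

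Within the luminal-like class the member share ran from 1.497% to 2.88% over the 10 DoubleTg clusters and from 2.05% to 2.67% over the 8 TripleTg clusters. The lowest DoubleTg cluster was led by Sbp and Spink1, secretory proteins of the prostate, and its 50 top genes took 60.5% of UMIs. Outside those 50 genes its member share was 3.79%, within the DoubleTg range of 3.14% to 3.90%. No member was among the 50 top genes of any cluster.

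**Figure D5:**
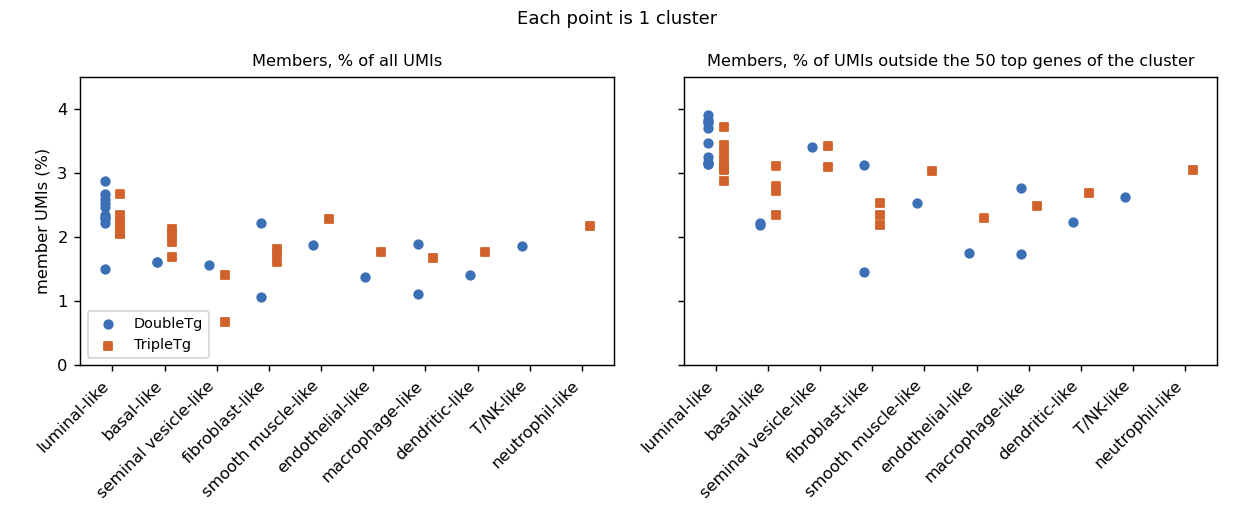
Member UMIs of each cluster (1 point per cluster), as a percentage of all UMIs (left) and of UMIs outside the cluster's own 50 top genes (right), by class, with circles for DoubleTg and squares for TripleTg. The Sbp-led luminal-like cluster is at 1.497% on the left and 3.79% on the right, and a TripleTg seminal vesicle-like cluster at 0.68% and 3.43%.

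The highest luminal-like cluster in each library was the one with Mki67 among its 10 leading genes, a marker of dividing cells. This comparison was chosen after the clusters had been seen, and it sets 105 cycling-cluster cells against 4894 others in DoubleTg and 368 against 4368 in TripleTg. The median log2 ratio over the members was 0.40 in DoubleTg, beside 0.15 over all genes. There 76 of 78 members were above 0, beside 5849 of 9135 genes. At least 1.5-fold higher were 10 members (17.3% of all genes), and 0 were lower (5.7% of all genes). In TripleTg the median was 0.36, beside 0.02 over all genes, with 71 of 76 members above 0, beside 4564 of 8683 genes. At least 1.5-fold higher were 7 members (11.8% of all genes), and 1 was lower, Cox4i2 (6.63% of all genes). At 5000 UMIs per cell the medians were 0.41 and 0.34. The cycling clusters were the deeper ones, with median depths of 41543 and 40304 UMIs beside 35253 and 25054 in the other clusters.

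Among the members higher in the cycling clusters of both libraries were Uqcr10, a small subunit of complex III (0.74 in DoubleTg and 0.60 in TripleTg), Atp5k (0.65 and 0.61) and Atp5o, which links the head and stator of ATP synthase (0.62 and 0.71). Cox7a2l (-0.31 and -0.15) and Ndufa6 (-0.10 and -0.27) were below 0 in both.

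The study also compared DoubleTg epithelial cells with and without detected hMETtg, the transgene that Cre switches on. Here the comparison was kept to luminal-like cells, a narrower grouping that leaves out basal-like and other epithelial cells. In DoubleTg luminal-like cells, 4148 had at least 1 hMETtg UMI and 851 had none, and detection went with depth, at medians of 37131 and 23679 UMIs. Members took 2.30% of UMIs in positive and 2.09% in negative cells. Positive over negative, the members' median log2 ratio was 0.14, beside 0.13 over all genes, and of 76 members 0 were at least 1.5-fold higher (6.88% of all genes) and 0 lower (2.94% of all genes). Single members lay between -0.07 and 0.34, and thinning to 5000 UMIs brought the median to 0.06. The 13 mitochondrially encoded genes had a median of -0.12, beside 0.13 over all genes.

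Other genes of the pathway were taken from fixed lists. Assembly factors, which build the complexes without staying in them, had 36 of 44 passing in luminal-like cells, with a median of -0.06 and 4 higher (beside 20.3% of all genes) and 6 lower (22.6% of all genes) by 1.5-fold. Sdhaf1, an assembly factor of complex II, had 11.1 and 28.2 CPM (1.34) and Ndufaf4, of complex I, 26.03 and 14.6 CPM (-0.84). In basal-like cells 34 passed, with a median of 0.09, beside -0.08 over all genes, and 9 higher (23.6% of all genes) and 9 lower (26.1% of all genes). Sdhaf4, of complex II, had 3.40 and 19.0 CPM (2.48) there, Ndufaf4 56.5 and 17.9 CPM (-1.66) and Sco2, a copper chaperone of complex IV, 33.1 and 10.8 CPM (-1.62). The 13 mitochondrially encoded genes had medians of 0.23 in luminal-like and 0.44 in basal-like cells, beside 0.00 and 0.29 for the nuclear members.

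Cytochrome c (Cycs), cytochrome c1 (Cyc1) and the acyl carrier Ndufab1, which belong to the chain but not to the naming rule, had luminal-like log2 ratios of -0.27, 0.44 and 0.33. The 13 citrate cycle genes had a luminal-like median of 0.17, among them Idh3a with 16.2 and 50.3 CPM (1.64) and Fh1, fumarase, with 69.3 and 34.3 CPM (-1.01). Of 11 regulators of mitochondrial genes, 10 passed in both classes, with medians of 0.10 in luminal-like and -0.66 in basal-like cells. In basal-like cells 1 was at least 1.5-fold higher (23.6% of all genes), the nuclear receptor Esrra with 4.27 and 9.18 CPM (1.11), and 5 were lower (26.1% of all genes). Among these, Myc had 174 and 40.4 CPM (-2.11), Pprc1, a coactivator, 38.0 and 13.5 CPM (-1.50), and Tfam, which packages and transcribes mitochondrial DNA, 41.0 and 17.4 CPM (-1.24). By qRT-PCR of prostate tissue, not of basal-like cells, the study reported Myc as higher in TripleTg than in DoubleTg mice. Genes induced by tissue dissociation were also lower in TripleTg basal-like cells, and their part was not tested. In the other classes 9 or 10 regulators passed, with medians of -0.43 in fibroblast-like, -0.86 in smooth muscle-like, -0.62 in endothelial-like and -0.14 in macrophage-like cells, beside 0.09, 0.05, 0.05 and 0.09 over all genes. In seminal vesicle-like cells it was -0.40, beside -0.47 over all genes.

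Promoters of respiratory genes are known for binding NRF1, ETS factors such as GABP, and YY1. RefSeq promoter windows of 300 bases (250 before and 50 after the start, GRCm38.p6) were found for 69 of 84 members, 3 of them by synonym. The NRF1 core CGCATGCG, which reads the same on both strands, was in 8 of 69 member windows (11.6%) and in 1.87% of all 32851 windows. The ETS core CCGGAAG, on either strand, was in 15 (21.7%) and 8.86% of all windows, and the YY1 core AAGATGGCG in 7 (10.1%) and 1.40%. These are letter matches, not binding sites.

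The 8 members with the NRF1 core were Atp5g2, Atp5k, Atp5l, Cox6a1, Ndufa11, Ndufa8, Uqcr11 and Uqcrc1. Their median log2 ratio, TripleTg over DoubleTg, was -0.10 in luminal-like cells (range -0.63 to 0.39) beside 0.00 for the 57 members without it, and 0.14 (range -0.26 to 1.20) beside 0.29 in basal-like cells. The core lay within 150 bases before the RefSeq start in 4 of them, which span both ends of those ranges: Atp5k is the lowest in both classes, Atp5g2 the highest in luminal-like and Ndufa8 the highest in basal-like cells. The GENCODE span of the gene contains the stretch of Atp5g2 and overlaps those of Atp5k and Ndufa8, so the annotations differ in these starts. The stretches are chr15:102671048-102671197 for Atp5g2, chr5:108434400-108434549 for Atp5k and chr2:36049339-36049488 for Ndufa8, all on the minus strand, and chr17:56717612-56717761 (+) for Ndufa11, read 5′ to 3′ on the gene's strand with the core in capitals.
Atp5g2: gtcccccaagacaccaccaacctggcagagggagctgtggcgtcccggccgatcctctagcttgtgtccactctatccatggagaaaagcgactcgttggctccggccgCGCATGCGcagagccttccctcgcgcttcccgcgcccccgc
Atp5k: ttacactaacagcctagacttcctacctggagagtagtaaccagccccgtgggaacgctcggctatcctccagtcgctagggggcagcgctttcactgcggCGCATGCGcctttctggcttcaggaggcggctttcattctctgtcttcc
Ndufa11: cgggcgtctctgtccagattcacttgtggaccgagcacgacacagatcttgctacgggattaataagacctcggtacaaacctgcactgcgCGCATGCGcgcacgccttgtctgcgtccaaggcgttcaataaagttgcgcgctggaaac
Ndufa8: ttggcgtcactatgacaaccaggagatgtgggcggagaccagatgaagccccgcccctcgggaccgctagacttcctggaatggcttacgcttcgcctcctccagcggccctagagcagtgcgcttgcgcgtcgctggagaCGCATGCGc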

How the data were processed

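The deposited matrices hold raw UMI counts per gene and cell, which the authors made with Cell Ranger from 10x Genomics 3′ v3 libraries aligned to mm10 with the transgene sequences added. The study's methods and the submitters' processing notes give release 6.0.2, while the header of the DoubleTg matrix gives 6.1.1. The study's limits on genes and mitochondrial UMIs were already met by every TripleTg cell and were applied here to both libraries. The values of 1 member are not reported here by name, though it stays in the counts and medians. Whether the counting used strand for overlapping genes is not given in the sources used here.

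Each library was clustered with scanpy 1.11.5 and leidenalg 0.10.2 on counts per 10000, 2000 variable genes without members and mt- genes, 20 principal components, 15 neighbours and resolution 1, which gave 27 DoubleTg and 28 TripleTg clusters. A cluster took a class from marker lists (mean log2 fold of at least 2, with 3 raised markers for non-epithelial classes, or at least 1.5 for basal-like and seminal vesicle-like with a marker among the top 10 genes). Luminal-like clusters had 5 of 14 luminal markers in 50% of cells. Thresholds were set after the clusters had been seen, and differences from the study may come from these rebuilt names. Unnamed clusters were shallow, mixed or led by genes of another class. Scrublet called 273 DoubleTg cells (2.58%) and 0 TripleTg cells, where its automatic threshold (0.624) lay above the highest score (0.488), and no cell was removed by it.

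UMIs were summed per class and library. Intervals are exact Poisson for sums, Clopper-Pearson for shares and exact conditional binomial for log2 ratios. A member with 0 UMIs in 1 group was set to a floor of 3 counts per group. The steps were tested on simulated data. The members and lists were chosen with earlier results of these data known. The named members were catalytic subunits, isoform groups, the 3 with the highest CPM in each complex, the 5 highest and 5 lowest luminal-like ratios and those 4-fold apart between classes, and others named for a class were chosen after their values were seen. Coding sequences were aligned with Biopython 1.88 and TMM factors came from edgeR 4.0.16, with no edgeR test.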

Additional observations from a re-analysis of the deposited data

Results flagged for a closer look

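A few members had ratios of opposite direction in different cell classes under the same comparison, TripleTg over DoubleTg, each by at least 1.5-fold. The log2 ratio of Ndufv3 was 0.79 in basal-like and -1.22 in luminal-like cells. Sdhb had 0.70 in macrophage-like and -0.60 in luminal-like cells. Sdhc, a membrane anchor of complex II, had 0.80 in endothelial-like and -0.75 in smooth muscle-like cells, the latter from 70 and 63 UMIs. With 1 library per genotype, these differences between classes were not tested.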

How the results depend on the processing

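No paired analysis was possible because each genotype has 1 library, and for the same reason no replicate could be left out. Values are the members' median log2 ratios. Under TMM factors the luminal-like value (0.00) was -0.0618, luminal-like over non-epithelial 0.91 in DoubleTg and 0.52 in TripleTg, and hMETtg-positive over negative 0.0695. Leaving the 50 genes of highest CPM out of the totals gave -0.0851, 0.66, 0.26 and -0.00993 in the same order. Means of per-cell CPM gave -0.0165 for luminal-like, 0.28 for luminal-like over non-epithelial in TripleTg and 0.0408 for hMETtg, and equal weights for clusters gave -0.0686 for luminal-like. Thinning to 5000 UMIs gave 0.51 for macrophage-like, 0.66 for luminal-like over non-epithelial in DoubleTg and 0.0638 for hMETtg. Removing Scrublet calls gave 0.30 for fibroblast-like, 0.48 for macrophage-like and 0.63 for luminal-like over non-epithelial in DoubleTg.

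Further alternatives were chosen after seeing the data. Removing the 5% of cells with the highest Scrublet score gave 0.50 for fibroblast-like, 0.55 for macrophage-like and 0.68 for luminal-like over non-epithelial in DoubleTg. Keeping cells with at most 2 of 7 epithelial markers gave 0.48 and 0.61 for the first 2 of these, leaving out shallow clusters gave 0.78 and 0.67, and leaving out the shallow DoubleTg cluster alone gave 0.77 for fibroblast-like. The basal-like median stayed between 0.24 and 0.35 over 10 alternatives and the endothelial-like one between 0.32 and 0.59. The number of members higher by 1.5-fold was 5 in fibroblast-like, 15 in macrophage-like, 22 in endothelial-like and 1 in luminal-like cells. Beside these stood 23.1%, 19.8%, 24.1% and 20.3% of all genes. Under alternatives the numbers reached 55, 46, 40 and 3. For luminal-like over non-epithelial classes the number ran from 33 to 70 in DoubleTg and from 3 to 29 in TripleTg, highest under TMM factors in both. The share of all genes past the fold rose as well, as given above for the 55, 46, 70 and 29. For the 40 and the 3 it is not given here, so they are not read as results about the members. In fibroblast-like cells, Ndufa4l2 turned to -0.12 with means of per-cell CPM and Ndufa1 to 0.18 without shallow clusters and to 0.16 without the DoubleTg one alone. Causes of these shifts were not tested. Depth limits Ndufa4l2 in luminal-like cells, with 10 and 20 UMIs, and Cox4i2 in DoubleTg basal-like cells, with 18.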
